A study of Mus musculus with 12 samples.

Results

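The genes described here are the AP-1 and BATF transcription factors of mouse CD4 T cells: Fos, Fosb, Fosl1, Fosl2, Jun, Junb, Jund, Batf, Batf3 and Atf3. They were chosen by name, and a probe set (the group of array probes that reads 1 gene) was taken where its annotated symbol was 1 of these names. Each gene had 1 probe set, which gave 10 members among 23410 probe sets with a gene symbol and 28853 in all. The cells came from C57BL/6 mice and are labelled as naive CD4 T cells, meaning helper T cells that have not yet met antigen. The PP2Ac transgenic mice (Tg) over-express the catalytic subunit of protein phosphatase 2A, a product of the gene Ppp2ca, and wild-type mice (WT) served as their controls. Cells of each genotype were taken unstimulated (0 h) or after 6 h or 24 h with 0.25 ug/mL anti-CD3 and 0.5 ug/mL anti-CD28, antibodies that engage the T cell receptor and its costimulatory receptor. Each of the 6 groups, Tg at 0, 6 and 24 h and WT at 0, 6 and 24 h, had 2 one-colour arrays. In each pair 1 array carries the mark Rep in its title and the other is called unmarked here.

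Several things limit these groups. The source field of the WT samples holds the words WT and transgenic together, and their titles call them WT, which is how they are treated here. The sources used here do not give the promoter that drives the transgene, nor whether arrays of a group came from separate mice or cultures, so the p-values measure only the spread between these samples. Cells cultured without antibodies for 6 h or 24 h were not analysed here, so time in culture and stimulation cannot be told apart. In bulk RNA, fewer cells of a type and less RNA per cell cannot be told apart either.

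AP-1 is a family of transcription factors that bind DNA as pairs held together by a leucine zipper. FOS proteins pair with JUN proteins, and the pair binds the sequence TGACTCA. In T cells, AP-1 joins NFAT on the promoters of cytokine genes such as Il2 after the T cell receptor and CD28 have signalled through MAP kinases. BATF and BATF3 lack a transactivation domain, pair with JUN proteins and act with the interferon regulatory factors IRF4 and IRF8 on joint sites. ATF3 is a stress-responsive factor of the same superfamily that can pair with JUN proteins.

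Of the 10 members, 9 had a promoter window in the RefSeq table for GRCm38.p6, from 250 bases before to 50 bases after the annotated start of the gene, and Fosl1 had none there. The windows were searched on both strands for TGACTCA (an AP-1 site), TGACGTCA (a CRE, the cAMP response element), TGACG (a CRE half-site, contained in TGACGTCA), TGACATCA and TTACGTCA (variants of the CRE), and for the CArG box, the site of serum response factor. Of the 9 windows, 6 held a match. The promoters of Batf (chr12:85686470-85686769, plus strand), Fosb (chr7:19309996-19310295, minus strand) and Jun (chr4:95052173-95052472, minus strand), which each held a match, are shown. Batf rose after stimulation, while Fosb and, in WT cells, Jun fell. Fosl2 also fell, in both genotypes, and its window, which held no match, is not printed. A link between the motifs and the changes in expression was not tested. Capitals mark the matched letters.
Batf: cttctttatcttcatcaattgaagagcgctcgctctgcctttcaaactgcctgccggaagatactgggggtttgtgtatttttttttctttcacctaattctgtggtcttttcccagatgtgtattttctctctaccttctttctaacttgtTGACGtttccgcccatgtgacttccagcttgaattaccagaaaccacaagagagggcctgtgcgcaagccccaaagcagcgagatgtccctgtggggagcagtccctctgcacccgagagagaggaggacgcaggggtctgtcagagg
Fosb: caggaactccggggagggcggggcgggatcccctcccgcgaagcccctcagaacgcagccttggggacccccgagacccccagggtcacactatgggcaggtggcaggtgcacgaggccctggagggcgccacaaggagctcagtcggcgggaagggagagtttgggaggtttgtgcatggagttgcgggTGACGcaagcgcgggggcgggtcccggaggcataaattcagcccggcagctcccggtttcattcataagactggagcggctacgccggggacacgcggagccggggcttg
Jun: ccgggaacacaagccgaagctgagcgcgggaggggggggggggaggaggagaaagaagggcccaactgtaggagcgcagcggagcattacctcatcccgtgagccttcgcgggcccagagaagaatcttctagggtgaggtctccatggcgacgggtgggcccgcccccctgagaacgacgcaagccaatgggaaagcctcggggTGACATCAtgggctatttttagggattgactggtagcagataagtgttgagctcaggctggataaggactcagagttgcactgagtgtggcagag
TGACG starts 98 bases before the Batf start and 60 bases before the Fosb start, and TGACATCA starts 45 bases before the Jun start. TGACG also occurred in the windows of Fos and Junb, and TTACGTCA in that of Atf3. The TTACGTCA of Atf3 holds TGACG on the other strand, so the Atf3 window counts as a TGACG match too. The windows of Fosl2, Jund and Batf3 held none of the motifs. Over all 32851 windows in the table, TGACG occurred in 20.8%, TGACATCA in 3.62%, TTACGTCA in 0.499%, TGACTCA in 5.20%, TGACGTCA in 1.79% and the CArG box in 1.63%. The Fos and Batf genes lie on chromosome 12 with 1 other protein-coding gene, Jdp2, between them. Batf3 and Atf3 lie on chromosome 1 with 1 other, Fam71a, between them.

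All values below are log2 intensities after quantile normalisation, on which the median probe set of an array read 7.45 and the upper quartile 10.16. All 10 members read above the lower quartile of 5.81 on every array. The level of 1 probe set cannot be set against that of another, so members are compared by their changes. Differences are given with the standard error of the limma fit (n = 2 arrays per group), and a change is one whose adjusted p is under 0.05 over the 23410 probe sets tested. The Ppp2ca probe set averaged 0.57 ± 0.05 higher in Tg than in WT over the 3 times (limma adjusted p = 0.00438), and its Tg arrays were above its WT arrays at each time. In the same fit its difference passed at no single time (0.74 with limma adjusted p = 0.0551 at 0 h, and 0.60 with 0.282 at 24 h). It was smallest at 6 h, at 0.38. In a second fit with the mark Rep as a block it passed at 0 h (limma adjusted p = 0.0347), and not at 6 h or 24 h (0.955 and 0.099).

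After stimulation the members moved in opposite directions. Batf and Fosl1 rose at 6 h in both genotypes, Fosb fell at 6 h and further by 24 h, and Fosl2 fell by 24 h. At 6 h against 0 h, 2 of 10 members rose and 1 fell in Tg cells, where 25.4% of all probe sets tested changed, and 2 rose and 1 fell in WT cells, where 26.5% changed. At 24 h against 0 h, 1 of 10 rose and 2 fell in Tg cells (background 23.8%), and 1 rose and 3 fell in WT cells (background 26.7%). At 24 h against 6 h, 1 rose and 2 fell in Tg cells (background 14.3%), and none rose and 2 fell in WT cells (background 13.3%). Against 0 h, the shares of members changed were 30% and 30% at 6 h in Tg and WT cells and 30% and 40% at 24 h. They lay near or somewhat above the background of all tested probe sets. Between 6 h and 24 h they were 30% and 20%, above it. Without the 40% dimmest probe sets all 10 members remained, and the background was higher. It was then 43.4% and 44.7% at 6 h, 40.9% and 45.4% at 24 h, and 26.3% and 24.8% between 6 h and 24 h. The reading of these shares thus depends on the probe sets tested. The median change of the 10 members was 0.10 at 6 h and 0.06 at 24 h in Tg cells, and 0.07 and 0.13 in WT cells, against medians of all tested probe sets between -0.02 and 0.00.

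**Figure D1:**
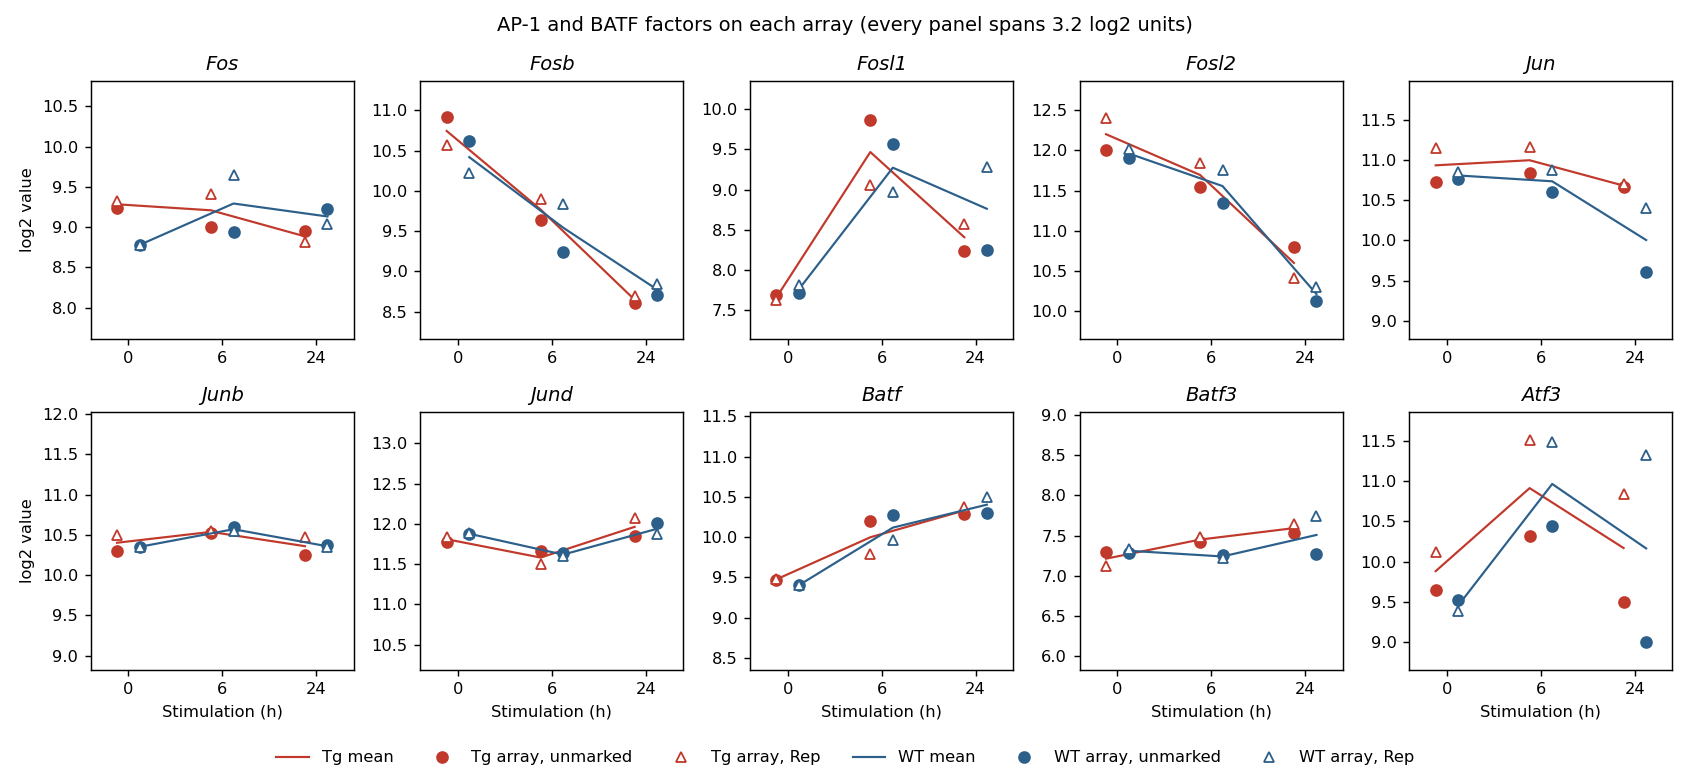
Log2 intensity of each of the 10 members on every array, at 0, 6 and 24 h, in Tg cells and in WT cells, with each group's 2 arrays as points (filled for unmarked, open for Rep) and the group means joined by a line. Fosb runs downward with time in both genotypes, Batf upward, and the Fosl1 group means are highest at 6 h, although its WT Rep array reads higher at 24 h.

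Among the FOS proteins, the AP-1 subunits that need a partner to bind DNA, Fosb carried the widest range of group means of all 10 members, 2.10. Its Tg arrays read 10.92 and 10.56 at 0 h, 9.64 and 9.89 at 6 h and 8.60 and 8.69 at 24 h. The WT arrays read 10.62 and 10.21 at 0 h, 9.24 and 9.84 at 6 h and 8.71 and 8.84 at 24 h. Within each genotype the values of the 3 times did not overlap, and both arrays fell at each step. At 24 h against 0 h Fosb changed by -2.10 ± 0.21 in Tg cells (4.28-fold lower, limma adjusted p = 0.000324) and by -1.65 ± 0.21 in WT cells (3.13-fold lower, adjusted p = 0.000625). At 6 h the change was -0.98 ± 0.21 in Tg cells (adjusted p = 0.00801) and -0.88 ± 0.21 in WT cells (adjusted p = 0.0134). Between 6 h and 24 h it was -1.12 in Tg cells (adjusted p = 0.00878) and -0.77 in WT cells (adjusted p = 0.0441). The calls of the earlier steps did not hold in every fit without 1 array. The Tg change at 6 h was -0.80 without the unmarked Tg array at 0 h and -0.85 without that at 6 h. The WT change was -0.67 and -0.58 without the matching WT arrays. None of these values passed. In a fit of only the groups compared the WT call was also lost (adjusted p = 0.0735). After 6 h, the Tg call was lost without the unmarked Tg array at 24 h (-1.08) or the Rep array at 6 h (-0.99). The WT call was lost without any 1 of 9 arrays, among them the Rep WT array at 6 h (-0.47) and the unmarked one at 24 h (-0.70). The 9 include every Tg array, and Tg arrays do not enter the WT difference. The Fosb change from 0 h to 24 h passed in every such fit.

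Fosl2, which encodes FRA-2, a FOS-related protein, passed the threshold against 0 h only at 24 h. Tg arrays read 12.01 and 12.40 at 0 h, 11.55 and 11.84 at 6 h and 10.80 and 10.41 at 24 h, and WT arrays read 11.91 and 12.01, 11.35 and 11.76, and 10.13 and 10.31. Each 24 h array was below every 0 h and 6 h array of its genotype. Fosl2 changed by -1.60 ± 0.19 at 24 h against 0 h in Tg cells (3.03-fold lower, adjusted p = 0.000646) and by -1.75 ± 0.19 in WT cells (3.36-fold lower, adjusted p = 0.000304). Between 6 h and 24 h Fosl2 changed by -1.09 in Tg cells (adjusted p = 0.00655) and -1.34 in WT cells (adjusted p = 0.00307), and the Tg value was -0.95 without the Rep Tg array at 6 h (adjusted p = 0.0585). The 6 h values of -0.51 in Tg cells and -0.41 in WT cells did not pass (adjusted p = 0.0935 and 0.174). Both 6 h arrays of each genotype were nonetheless below both of its 0 h arrays, so an earlier start of the fall is not excluded.

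Fosl1, which encodes FRA-1, another FOS-related protein, had its highest group mean at 6 h in both genotypes. The Tg arrays read 7.69 and 7.63 at 0 h, 9.87 and 9.06 at 6 h and 8.24 and 8.58 at 24 h, and the WT arrays 7.71 and 7.81, 9.57 and 8.97, and 8.25 and 9.28. At 6 h both arrays of each genotype lay above both of its 0 h arrays. The rise was 1.81 ± 0.35 in Tg cells (3.5-fold, limma adjusted p = 0.00459) and 1.51 ± 0.35 in WT cells (2.85-fold, adjusted p = 0.0116). The WT rise was 1.21 without the unmarked WT array at 6 h (adjusted p = 0.0867) and 1.46 without that at 0 h (0.059). At 24 h Fosl1 still read 0.75 above 0 h in Tg cells (adjusted p = 0.177) and 1.0 above it in WT cells (adjusted p = 0.0682), neither of which passed. In a fit of only the groups compared, the Tg value passed (limma adjusted p = 0.0154). Without the unmarked WT array at 24 h the WT value was 1.51 and passed (adjusted p = 0.014). Between 6 h and 24 h Fosl1 read -1.06 in Tg cells (adjusted p = 0.0838) and -0.51 in WT cells (0.419), and the WT Rep array was the higher one at 24 h, by 0.30. Replicates of this gene lay far apart: its residual SD of 0.43 was above that of 97% of probe sets tested, and the WT arrays at 24 h differed by about as much as the mean change.

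Fos, the founding member of the family, had Tg readings of 9.24 and 9.33 at 0 h, 9.0 and 9.41 at 6 h and 8.96 and 8.81 at 24 h. The WT readings were 8.78 and 8.78, 8.93 and 9.65, and 9.23 and 9.03. No comparison over time passed for Fos, with 6 h values of -0.07 in Tg cells and 0.51 in WT cells (adjusted p = 0.866 and 0.118), and 24 h values of -0.40 and 0.35 (adjusted p = 0.238 and 0.282). Without the unmarked WT array at 6 h the WT value at 6 h was 0.87 and passed (adjusted p = 0.00863). Fos transcripts are known as immediate early ones that peak within the first hour, a time that these samples do not cover.

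The JUN proteins, which can pair with each other and with FOS and BATF proteins, had ranges of group means of 0.99 for Jun, 0.38 for Jund and 0.22 for Junb. Jun read 10.72 and 11.14, 10.84 and 11.16, and 10.66 and 10.70 at 0, 6 and 24 h in Tg cells, and 10.77 and 10.85, 10.60 and 10.87, and 9.61 and 10.41 in WT cells. Both WT arrays at 24 h lay below every other Jun reading. At 24 h against 0 h Jun fell by 0.80 ± 0.24 in WT cells (limma adjusted p = 0.0376) and read -0.25 ± 0.24 in Tg cells (adjusted p = 0.548). The WT difference was -1.16 among unmarked arrays and -0.44 among those marked Rep, and without the unmarked WT array at 24 h it was -0.40 (adjusted p = 0.21). It also failed to pass without either WT array at 0 h (-0.84 and -0.76, adjusted p = 0.101 and 0.144) or either Tg array at 24 h (adjusted p = 0.0543 for each). With the mark as a block, the change between 6 h and 24 h in WT cells also passed, at -0.73 (adjusted p = 0.0168, against 0.0847 without it, with 18.4% of probe sets changed under the block). It passed without the Rep WT array at 24 h too (-1.13, adjusted p = 0.012).

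Junb, a JUN protein that is abundant in activated T cells, had the smallest range of the 10 genes. Its 12 arrays read between 10.25 and 10.60, and it passed in no comparison. Jund, which encodes the JUN protein found in many resting cells, read 11.78 and 11.84, 11.66 and 11.50, and 11.85 and 12.07 on Tg arrays at 0, 6 and 24 h. Its WT arrays read 11.87 and 11.88, 11.64 and 11.59, and 12.01 and 11.87. In both genotypes each 6 h array was below every array of the other times. Between 6 h and 24 h Jund rose by 0.38 ± 0.10 in Tg cells (adjusted p = 0.0337), and the same difference in WT cells was 0.32 ± 0.10 (adjusted p = 0.0662), which passed without the 40% dimmest probe sets (0.0456) and with trended and robust moderation (0.0495). The Tg change was 0.30 without the Rep Tg array at 6 h and 0.27 without that at 24 h (adjusted p = 0.199 and 0.176), and leaving out any 1 of the 4 arrays at 0 h also lost the call, with adjusted p of 0.0537 or 0.0519.

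Batf, needed in mice for the differentiation of IL-17-producing helper T cells, rose at both times. Tg arrays read 9.47 and 9.48 at 0 h, 10.20 and 9.79 at 6 h and 10.29 and 10.37 at 24 h, and WT arrays read 9.40 and 9.40, 10.27 and 9.96, and 10.30 and 10.50. Every stimulated array was above every unstimulated one. The 6 h change was 0.52 ± 0.15 in Tg cells (limma adjusted p = 0.0275) and 0.72 ± 0.15 in WT cells (adjusted p = 0.00564), and the 24 h change 0.86 ± 0.15 in Tg cells (1.81-fold, adjusted p = 0.00307) and 1.0 ± 0.15 in WT cells (2-fold, adjusted p = 0.00114). The Tg call at 6 h was lost without the unmarked Tg array at 6 h, where the value was 0.32. It was also lost without the unmarked or the Rep Tg array at 0 h, although the values stayed at 0.52 and 0.53. Batf3, known mainly for its role in dendritic cells, stayed between 7.12 and 7.74 on all 12 arrays. Its differences at 24 h against 0 h were 0.38 in Tg cells and 0.20 in WT cells (adjusted p = 0.0809 and 0.36). Without the unmarked WT array at 24 h, the WT value was 0.43 and passed, and the Tg value passed as well. Between 6 h and 24 h Batf3 read 0.27 in WT cells (limma adjusted p = 0.259). Without the same array that value was 0.50 and passed too.

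**Figure D2:**
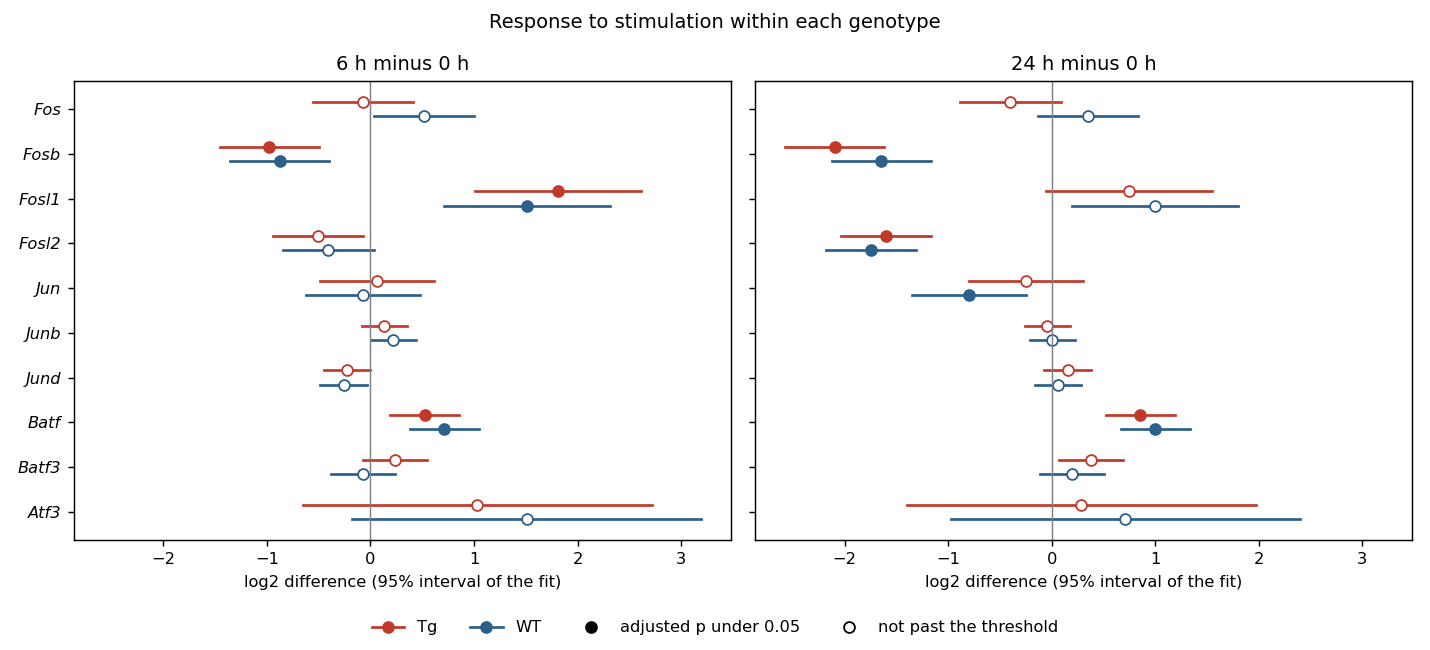
Log2 change of each member at 6 h and at 24 h against 0 h in Tg and in WT cells, with 95% intervals of the limma fit and filled symbols for changes with adjusted p under 0.05. Fosb and Fosl2 lie furthest below 0 at 24 h, Fosl1 lies furthest above 0 at 6 h and Batf is above 0 at both times.

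Atf3 differed between arrays of the same group more than any other member. Tg arrays, the unmarked one first, read 9.65 and 10.11 at 0 h, 10.31 and 11.51 at 6 h and 9.50 and 10.84 at 24 h, and WT arrays 9.52 and 9.39, 10.44 and 11.49, and 9.0 and 11.33. The Rep array was the higher one in 5 of 6 groups, by 1.04 on average over the 6 groups, and its residual SD of 0.91 was above that of 99.4% of probe sets tested. The mean of the neutrophil markers described further on ran the other way, lower on the Rep array in all 6 groups. Its part in the Atf3 values was not tested. At 6 h both arrays of each genotype were above both of its 0 h arrays, with a difference of 1.03 ± 0.75 in Tg cells (adjusted p = 0.397) and 1.51 ± 0.75 in WT cells (adjusted p = 0.191). With the mark as a block, the WT difference passed (SE 0.46, adjusted p = 0.0369), a fit in which 30.5% of all probe sets changed. It passed in a fit of only the groups compared too (adjusted p = 0.0435). At 24 h the difference was -0.15 among unmarked and 0.72 among Rep arrays in Tg cells, and -0.52 and 1.94 in WT cells. Jun was also higher on the Rep array in 6 of 6 groups, by 0.32 on average. What the mark stands for is not given in the labels.

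**Figure D3:**
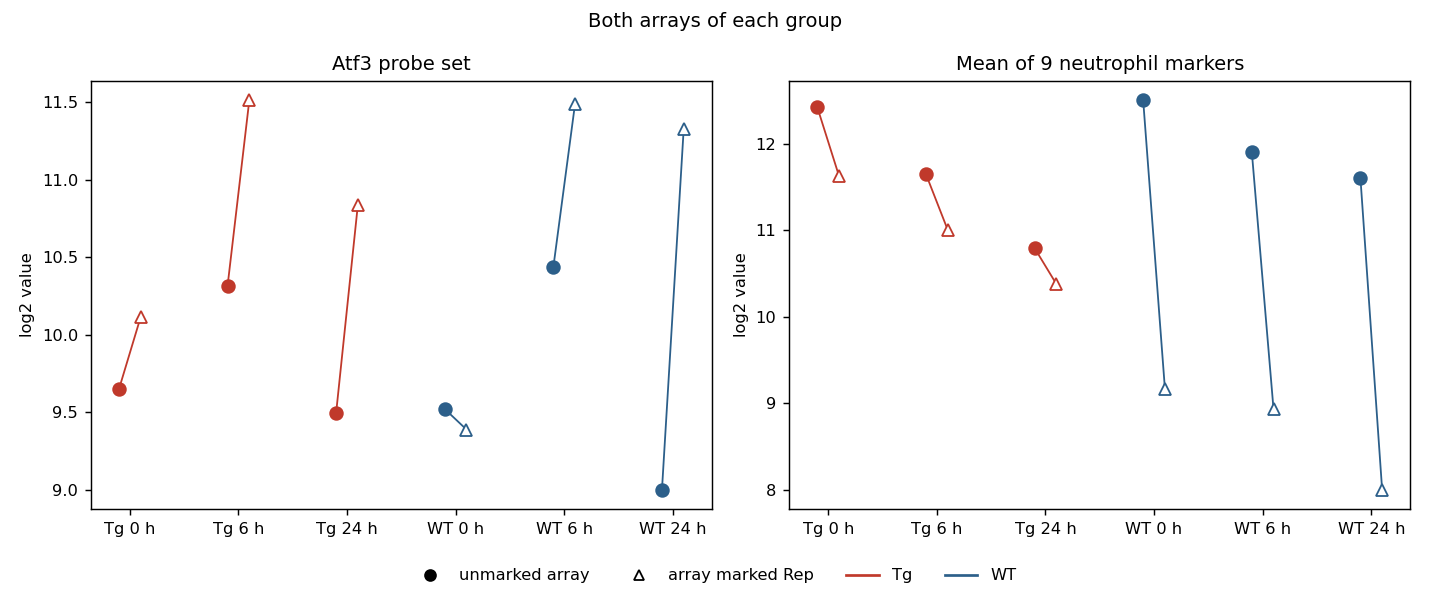
Log2 intensity of Atf3 (left) and mean log2 intensity of 9 neutrophil markers (right) on the unmarked array and the Rep array of each of the 6 groups, joined by a line. The Rep array is higher in 5 of 6 groups, by up to 2.33 in WT cells at 24 h. The neutrophil markers are lower on the Rep array in all 6 groups.

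No member differed between Tg and WT cells at an adjusted p under 0.05. The count was 0 of 10 at 0 h, at 6 h and at 24 h, where 0.00854% of all probe sets passed at each time, and 0 of 10 averaged over the times, where 0.0256% passed. At an unadjusted p under 0.05 limma called 1 member at 0 h (background 3.56%), 0 at 6 h (2.61%), 1 at 24 h (4.26%) and 2 on average (6.34%). The groups did not overlap for 5 of 10 members at 0 h (33.3% of all tested), 1 at 6 h (25.2%) and 4 at 24 h (30.7%). The median difference of the 10 members was 0.10 at 0 h, 0.05 at 6 h and 0.00 at 24 h, against -0.02, -0.01 and -0.01 over all tested probe sets.

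The member called at 0 h was Fos, at 9.24 and 9.33 in Tg cells against 8.78 and 8.78 in WT cells, a difference of 0.50 ± 0.21 with a 95% interval of 0.02 to 0.99 (limma adjusted p = 1). The one called at 24 h was Jun, at 10.66 and 10.70 in Tg cells against 9.61 and 10.41 in WT cells, a difference of 0.68 ± 0.24 with an interval of 0.12 to 1.23 (adjusted p = 1). It was 1.06 between unmarked arrays and 0.29 between Rep arrays. Averaged over the times, Jun read 0.35 ± 0.14 higher in Tg cells (adjusted p = 0.769) and Fosl2 0.25 ± 0.11 higher (adjusted p = 0.783). None of these passed after adjustment. For no member did a difference in response between Tg and WT cells pass after adjustment at 6 h or at 24 h. The count was 0 of 10 in each case, with a background of 0% in each. With 2 arrays per group, these counts do not show that the genotypes respond alike. Unadjusted, 0 members passed at 6 h (background 1.79%) and 1, Fos, at 24 h (2.67%).

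**Figure D4:**
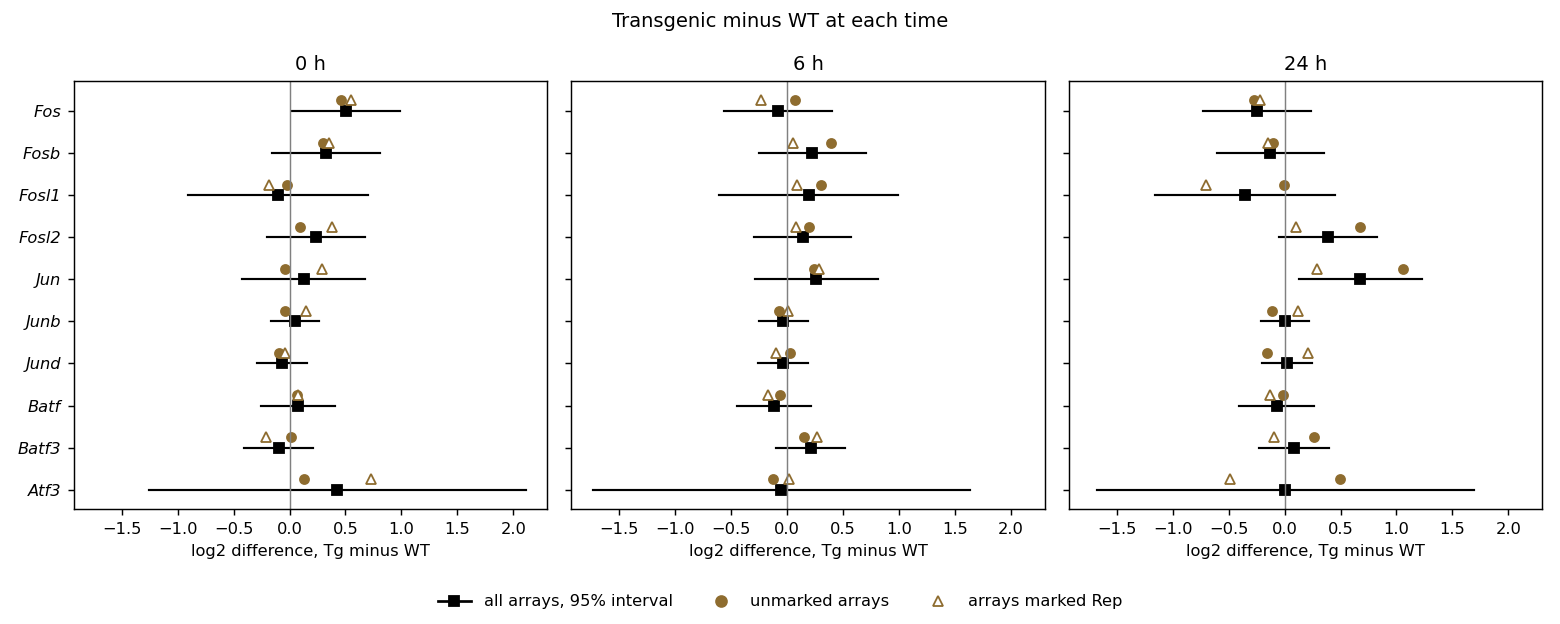
Log2 difference between Tg and WT cells for each member at 0, 6 and 24 h, with 95% intervals of the limma fit (black) and the differences between the unmarked and between the Rep arrays (brown, filled and open). No difference passed the adjusted threshold, and the intervals of Fos at 0 h and of Jun at 24 h lie above 0.

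Genes outside the family whose 12 array values followed those of a member most closely were listed for the members with a range of group means of at least 1. The candidates were 3082 single-symbol probe sets of like range. Predicted genes, with names such as Gm and a digit, Rik or LOC, were left out. Fosl2 was followed by Dusp1, a MAP kinase phosphatase gene (Pearson r = 0.977), Tnfaip3, which encodes the NF-kB inhibitor A20 (0.968), and Ramp3 (0.967). Fosb was followed by Frat2 (0.978), the small GTPase gene Rhob (0.973) and Dapk1 (0.971), and Batf by the chemokine receptor gene Ccr4 (0.982), Gtse1 (0.977) and Cndp2 (0.977). Fosl1 was followed by Foxred2 (0.981) and by both probe sets of Rangrf (0.975 and 0.972). Atf3 was followed by the amino acid transporter gene Slc6a9 (0.973), the stress-response gene Sesn2 (0.955) and a second transporter gene, Slc1a4 (0.940). These are descriptions over 12 arrays that share 6 groups and the Rep mark.

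The partners and neighbours of the members in the pathway were read from lists that hold 95 entries besides the members, of which 87 were measured. Maf and Srf each stand in more than a single list. The counts below stand beside shares of all tested probe sets that changed of 25.4% at 6 h and 23.8% at 24 h in Tg cells, and of 26.5% and 26.7% in WT cells. The IRF partners of BATF both rose: Irf4 by 2.58 at 6 h and 1.92 at 24 h in Tg cells, and by 2.99 and 2.44 in WT cells, and Irf8 by 1.49 and 1.41 in Tg cells and by 1.66 and 1.63 in WT cells (limma adjusted p from 1.48e-05 to 0.000314). Among 21 measured other factors of the AP-1, ATF, MAF and CREB families, 1 rose and 4 fell at 6 h in Tg cells and 3 rose and 4 fell in WT cells. At 24 h, 1 rose and 5 fell in Tg cells and 0 rose and 4 fell in WT cells. These shares, and those of the upstream kinases that follow, lay near those of all probe sets. Bach1, which encodes a repressor that pairs with small MAF proteins, fell by 1.05 at 6 h and 1.16 at 24 h in Tg cells, and by 1.11 and 1.30 in WT cells. Of 18 measured kinases and factors upstream of AP-1, 3 rose and 3 fell at 6 h in each genotype. At 24 h, 2 rose and 2 fell in Tg cells and 2 rose and 3 fell in WT cells. Map2k3, a kinase that activates p38, rose by 1.07 at 6 h in Tg cells and 1.06 in WT cells, while Map2k6, which activates p38 too, fell by 1.59 and 1.24, and Map3k1, upstream of JNK, by 0.96 and 0.83. Srf, the factor that binds the CArG box, rose by 0.56 at 24 h in Tg cells and 0.71 in WT cells.

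Of 13 cytokine and activation genes known as AP-1 and NFAT targets in T cells, 12 rose and 1 fell at 6 h in Tg cells and 11 rose and 1 fell in WT cells. At 24 h, 7 rose and 1 fell in each genotype. Il2, the T cell growth factor, rose by 4.70 ± 0.55 at 6 h in Tg cells and 4.49 ± 0.55 in WT cells, Il2ra, its receptor chain, by 2.89 and 3.06, and Tnf by 1.88 and 2.29. The gene that fell was Cd40lg, a costimulatory ligand, at -0.50 in Tg cells and -0.68 in WT cells at 6 h, named after its value was seen. With each array centred on its median its Tg value at 6 h no longer passed. The list's median at 6 h was 1.55 in Tg cells and 1.48 in WT cells, against 0.00 and -0.01 over all tested probe sets.

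Of 10 measured genes known to depend on BATF in helper T cells, 3 rose at 6 h and 6 at 24 h in Tg cells, and 1 and 2 in WT cells, with none lower. The 6 h share in Tg cells lay near the background of 25.4%, the 24 h share in Tg cells above that of 23.8%, and both WT shares below those of 26.5% and 26.7%. The list was chosen with earlier results of these data known, so these shares are a description and no independent support for a difference between genotypes. Il17a, a cytokine of the IL-17 family, rose by 1.14 ± 0.13 at 24 h in Tg cells (limma adjusted p = 0.000459) and had 0.05 in WT cells (adjusted p = 0.813). Il17f, of the same family, rose by 1.54 ± 0.22 in Tg cells (adjusted p = 0.00146) and had 0.14 in WT cells (adjusted p = 0.705). The difference between genotypes in the 24 h response of Il17a was 1.08 ± 0.18 and did not pass (adjusted p = 1). At 24 h, 0 of the 10 passed between Tg and WT cells without the block, and their median difference was 0.65, with 0.97 among unmarked and 0.32 among Rep arrays.

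With the mark as a block, 2 of these genes passed between the genotypes. Il17f averaged 8.55 in Tg cells and 7.14 in WT cells at 24 h, a difference of 1.40 that was 1.39 among unmarked and 1.41 among Rep arrays (adjusted p = 0.0165 with the block, 0.436 without it). At 6 h it was 1.63 higher in Tg cells (0.00489 and 0.264), and averaged over the times 1.01 higher (0.00237 and 0.0874). Il23r, a receptor chain for IL-23, was 1.14 higher in Tg cells at 24 h (0.0322 and 0.307) and 0.68 higher on average (0.0105 and 0.1). Under the block, 0.0171% of all probe sets passed at 6 h, 0.0171% at 24 h and 0.0769% on average. Without quantile normalisation the averaged Il17f difference was called as well (adjusted p = 0.0446 on the deposited values, 0.0447 after centring each array on its median).

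Of 16 other immediate early genes, 7 rose and 3 fell at 6 h in Tg cells and 8 rose and 3 fell in WT cells, and at 24 h 6 rose and 4 fell in Tg cells and 6 rose and 5 fell in WT cells. Egr1, an early growth response factor, rose by 1.60 at 24 h in Tg cells and 1.99 in WT cells, and Egr3 by 1.57 and 2.03. Dusp1 fell by 1.14 in Tg cells and 1.27 in WT cells. Members of this group thus moved in both directions, as the AP-1 genes did. Of 7 measured heat shock genes that respond to the handling of cells, 6 rose at 6 h in each genotype, and 3 rose and 1 fell at 24 h in each. Apart from Il17f and Il23r in the settings named, no gene of these pathway lists passed between Tg and WT cells with or without the block, on the values as deposited or with median centring.

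Markers of other cells were read on the same arrays. The 8 measured T cell markers averaged between 12.74 and 13.31. The 9 neutrophil markers averaged 12.42 and 11.62 at 0 h, 11.65 and 11.004 at 6 h and 10.79 and 10.38 at 24 h in Tg cells, and 12.50 and 9.17, 11.91 and 8.93, and 11.61 and 8.0 in WT cells, the unmarked array first. The 8 monocyte and macrophage markers ranged from 10.26 to 10.98 on Tg arrays and from 8.75 to 10.89 on WT arrays. The 5 B cell markers ranged from 9.85 to 11.15 on Tg arrays and from 9.63 to 10.99 on WT arrays, and the 6 NK cell markers from 8.36 to 9.55 and from 7.99 to 9.35. The 2 CD8 T cell markers ranged from 9.09 to 11.02 on Tg and from 9.05 to 10.27 on WT arrays, the 7 dendritic cell markers from 6.87 to 8.14 and from 6.60 to 7.70. The 2 erythroid markers ranged from 6.95 to 9.15 on Tg and from 6.97 to 8.40 on WT arrays, and the 4 platelet markers from 7.48 to 7.93 and from 7.27 to 8.50. No gene of these lists lay below the lower quartile on every array. At 24 h against 0 h the median change of the neutrophil markers was -1.33 in Tg cells and -0.85 in WT cells, with 0 of 9 passing in either. Of the dendritic cell markers 4 of 7 fell in each genotype (median -0.80 in Tg cells and -0.71 in WT cells), and of the NK cell markers 2 of 6 in each (-0.91 and -1.07). Of the erythroid markers 2 of 2 fell in Tg cells and 1 of 2 in WT cells (-2.08 and -0.85), of the monocyte and macrophage markers 1 of 8 in each (-0.54 and -0.55), and of the platelet markers 1 and 2 of 4 (-0.38 and -0.23). No B cell marker passed at 24 h, and 1 CD8 T cell marker rose in Tg cells. The medians of these 6 lists of non-T-cell markers (neutrophil, dendritic, NK, erythroid, monocyte and platelet) lay below 0 at 24 h. Other lists did not all do so. The B cell median was 0.20 in Tg cells and -0.05 in WT cells, and the CD8 T cell median 1.24 and 0.77. In WT cells the platelet median was 0.41 among unmarked arrays and -0.61 among Rep arrays. On the WT arrays marked Rep, Fosb was -1.38 and Fosl2 -1.71 at 24 h against 0 h, where the neutrophil mean was 8.0 at 24 h and 9.17 at 0 h. Among unmarked WT arrays, Fosb was -1.91 and Fosl2 -1.78. The part of these other cells in the results was not tested.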

How the data were processed

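The labels describe total RNA extracted with TRIZOL and Qiagen columns and biotin end-labelled cDNA on 12 one-colour arrays. The deposited table holds log2 values of 28853 probe sets, from 3.49 to 15.38. Its summarisation and normalisation by the authors are not given in the sources used here. Array medians ran from 7.39 to 7.50, and the values were quantile normalised between arrays. Probe sets were named from the platform annotation: 21789 had 1 symbol, 1621 several and 5443 none. The 23410 with a symbol were tested with limma 3.58.1 in R 4.3.3, in 1 fit of the 12 arrays with 6 group means (6 residual and 3.05 prior degrees of freedom). P-values were adjusted by Benjamini-Hochberg within each of 12 comparisons, with a threshold of 0.05. Arrays of a pair had r from 0.992 to 0.997, and the number of arrays limits the precision.

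The mark Rep was checked as a pairing: the 15 correlations between groups of the arrays' deviations from their group means ran from 0.138 to 0.591, so a second fit took the mark as a block. Members and gene lists were chosen with earlier results of these data known. Named were every member, up to 4 genes per list with the smallest p in a comparison described, Ppp2ca, and the 3 probe sets of highest r with each member whose group means spanned at least 1. A list gene outside this rule is marked as such. Each gene of a list was read from its brightest single-symbol probe set. Promoter sequences are from RefSeq (GRCm38.p6). Alternative settings used the deposited values without further scaling, or centred each array on its median. Others dropped the 40% dimmest probe sets, tested all rows, moderated with trend and robustly, weighted arrays, fitted only the groups compared, or used the block. Each array in turn, and the 3 WT arrays marked Rep together, were left out. The procedure was tested on simulated data. Plots were made with Python 3.11.15 and matplotlib 3.10.9.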

Additional observations from a re-analysis of the deposited data

Results flagged for a closer look

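In 2 members every array of 1 genotype moved opposite to every array of the other after stimulation. Fos at 24 h against 0 h was lower on both Tg arrays and higher on both WT arrays, and the responses differed by -0.752 ± 0.302 (limma adjusted p = 1). Batf3 at 6 h against 0 h was higher on both Tg arrays and lower on both WT arrays, with a difference of 0.308 ± 0.195 (adjusted p = 1). The difference did not pass the threshold in either gene. Arrays not overlapping those at 0 h was common: at 6 h it held for 60.2% of all tested probe sets in Tg cells and 58.5% in WT cells. At 24 h it held for 60.7% and 60.3%. The share of all probe sets with such opposite moves was not computed, so these 2 cases are not shown to be particular to the members.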

How the results depend on the processing

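No member changed direction past the threshold under any alternative, and no member passed between Tg and WT cells, or in the difference of responses, under any of them, leaving out each array included. The changes of Fosb, Fosl2 and Batf at 24 h against 0 h in both genotypes, of Batf at 6 h in WT cells, of Fosl1 at 6 h in Tg cells and of Fosl2 between 6 h and 24 h in WT cells passed in all 22 alternatives. Members passing between 6 h and 24 h in WT cells numbered 2, and 1 with median centring, with array weights, without the 3 WT arrays marked Rep and in a fit of the compared groups only. It was 3 without the dimmest probe sets, with trended and robust moderation (both adding Jund) and with the block. At 24 h in Tg cells 3 passed, and 5 in a fit of the compared groups only, which added the fall of Fos and the rise of Fosl1. Leaving out 1 array gave 1 to 3 at 6 h, 3 to 4 at 24 h and 0 to 4 between them in Tg cells, and 1 to 3, 3 to 5 and 1 to 2 in WT cells. The fall of Jun at 24 h in WT cells was lost in 8 alternatives, among them the values as deposited (-0.73, adjusted p = 0.0542) and median centring (-0.69, adjusted p = 0.0733). The rise of Jund after 6 h in Tg cells was lost in 9, and the fall of Fosb after 6 h in WT cells in 13. Without the unmarked WT array at 24 h, or the Rep one, or the 3 WT Rep arrays, Batf3 at 24 h (0.38) and Fosl1 after 6 h (-1.06) passed in Tg cells. The remaining losses and gains without single arrays stand beside their results. Of the other AP-1, ATF, MAF and CREB factors, 4 fell at 6 h in WT cells, and 1 with median centring. The replicate block added the calls of Atf3 at 6 h and of Jun after 6 h in WT cells and changed no other member's call, and it added the genotype calls of Il17f and Il23r. The causes of these shifts were not tested.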
